A study of Capra hircus with 40 samples.

Results

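The uterus of the Jining gray goat was compared between month 6 and month 2 after birth, over every mature microRNA (miRNA) of the count table. The comparison set 5 uterus libraries of month 6 against 5 of month 2, 10 of the 40 libraries of a series that covered ovary and uterus at day 1 and at months 2, 4 and 6. All animals were females from 1 farm under common rearing. They were untreated as far as the labels say, and each library stands for a separately numbered individual. The labels do not tie individuals across ages or tissues, and they give no batch, sequencing date or stage of the oestrous cycle. The members are all 427 miRNA rows of the table, and none was chosen by its values. Of these, 331 were tested. The other 96 fell below the filter on low counts, with a mean of at most 0.849 CPM over the 10 libraries (CPM are read counts scaled to a common library total), and 15 of them had no count in any.

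A miRNA is cut as a hairpin from a longer transcript, and 1 of its arms, named 5p or 3p, usually goes into an Argonaute protein while the other is degraded. The retained strand pairs through its seed with messenger RNAs and lowers their translation or stability. The uterus is layered, with luminal and glandular epithelium over stroma and, outside these, the smooth muscle of the myometrium. Its glands form after birth in ruminants, and ovarian steroids act on it as puberty approaches. Epithelium is known for the miR-200 family, smooth muscle for miR-143 and miR-145, and mesenchymal stroma for miR-199 and miR-214.

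Library totals ran from 7459887 to 8149915 counts at month 2 and from 7026495 to 7835510 at month 6, with 358 to 383 and 357 to 373 miRNAs detected. A gonad miRNA set the libraries apart from ovary. miR-202-5p, which is known from gonads, was at most 0.402 CPM over the 10 libraries. In ovary it was at 102 ± 41.4 CPM at month 2 and 74.0 ± 42.6 at month 6 (mean ± SD, n = 5). miR-143-3p ranged from 84565 to 245780 CPM over the 10 libraries but does not tell the organs apart. It also led some ovary libraries, with 18.7% of the counts in ovary month 6 replicate 4. A few libraries stood apart. Month 2 replicate 1 correlated better with the day 1 uterus libraries (mean Spearman rho across miRNAs 0.965) than with the other month 2 libraries (0.889), and it lay among the day 1 libraries on the first principal component, so it goes against its label. The other 4 month 2 libraries had a mean rho of 0.957 to 0.963 with their own age. Month 4 replicate 5, which shares the fit but not the comparison, had 0.914 with its own age. It lay highest on the first component, at 24.8. Month 6 replicates 4 and 5 lay with month 4 replicate 4 at 15.9 to 21.1 on the second component, where the other uterus libraries reached at most 0.236. Values are therefore given with all libraries. For many miRNAs and lists they are also given without month 2 replicate 1 and month 6 replicates 4 and 5. The left-out libraries are called the 3 libraries from here on. A value given only with all libraries may also change without them.

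**Figure D1:**
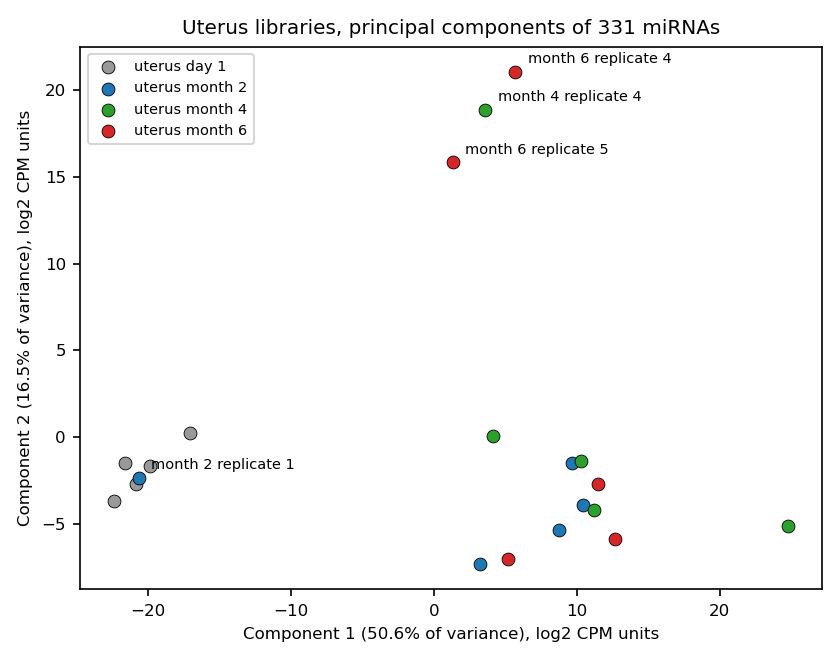
Principal components of the 20 uterus libraries from log2 CPM of the 331 tested miRNAs, with each point a library coloured by age and the share of variance on each axis. Month 2 replicate 1 sits among the day 1 libraries at the left, and month 6 replicates 4 and 5 sit at the top with month 4 replicate 4.

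No miRNA passed the test. The quasi-likelihood test of edgeR, fitted on all 20 uterus libraries and adjusted by the Benjamini-Hochberg method over 331 miRNAs, called 0 (0% of those tested) at an adjusted p under 0.05, with 0.106 as the smallest adjusted p. At an unadjusted p under 0.05 there were 64 miRNAs (19.3%), of which 43 (13%) were higher at month 6 and 21 (6.34%) lower. With the size factors of DESeq2 that split was 33 higher and 32 lower, and they moved the median log2 change of all miRNAs from 0.06 to -0.04. The Wald test of DESeq2 called 12 of the 331. These were let-7a-3p, let-7b-3p, miR-129-3p, miR-1296, miR-195-3p, miR-30f-5p, miR-361-3p and miR-504, higher at month 6, and miR-130a-3p, miR-130b-3p, miR-135b-5p and miR-383, lower. Precision was limited, as the median half-width of the 95% interval of a log2 change was 0.98. For 60 miRNAs the interval lay within 1 log2 unit of 0, and for the others it reached further in at least 1 direction. In bulk tissue, fewer cells of a type and less RNA per cell cannot be told apart, and this holds for every value below.

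**Figure D2:**
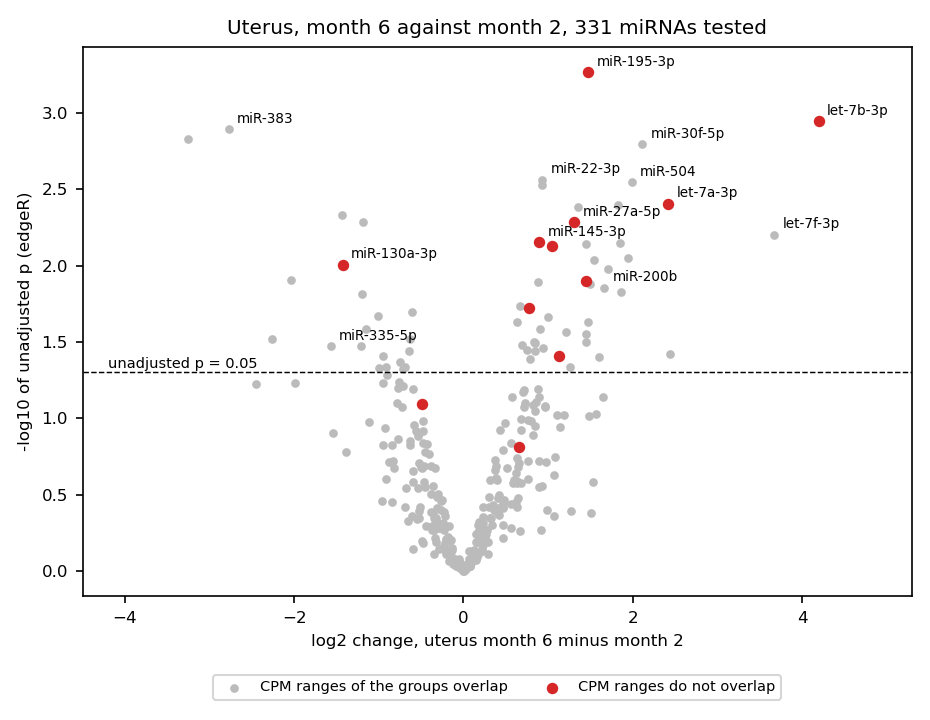
Each point is 1 of the 331 tested miRNAs, with its log2 change (month 6 minus month 2) on the x axis and -log10 of the unadjusted edgeR p on the y axis; the dashed line marks the threshold of 0.05. Red points are the 12 miRNAs whose 5 CPM values at month 6 all lie on 1 side of the 5 at month 2, and none of the 331 reached an adjusted p under 0.05.

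The CPM values of the 2 ages did not overlap for 12 of the 331 tested miRNAs (3.63%), 10 of them higher at month 6. With TMM scaling 9 did not overlap, 8 higher and 1 lower, so not all of the 12 separations held under it. Separations named below are those of CPM scaled to library totals. Fewer libraries separate more readily by construction, and 29 (18 higher and 11 lower) did not overlap without month 2 replicate 1, 37 (24 and 13) without month 6 replicates 4 and 5, and 65 (36 and 29) without the 3 libraries. The miRNA with the smallest p was miR-195-3p, an arm of a hairpin that shares its cluster with miR-497 and whose 5p arm belongs to the miR-15/miR-16 family of cell cycle regulators. In replicates 1 to 5 it stood at 41.2, 119.9, 135, 253 and 133 CPM at month 2 and at 317, 418, 288, 426 and 312 CPM at month 6. Every month 6 library exceeded every month 2 library, and replicate 1 was the lowest at month 2. The log2 change was 1.47 ± 0.36 (SE, 5 libraries per age, edgeR adjusted p = 0.106). It was 1.10 ± 0.34 without the 3 libraries, and without month 2 replicate 4 it passed the test at 1.82 (edgeR adjusted p = 0.0248). That library was the highest of month 2, so leaving it out favours a pass by construction. The level at day 1 was lower still, with a median of 40.2 CPM, and at month 4 it was 348 CPM. The 5p arm, miR-195-5p, was counted at a mean of only 0.985 CPM over the 10 libraries, against 244 CPM for the 3p arm, and had a log2 change of 0.67 ± 1.09. The 5p arm is the one usually retained from this hairpin, and the annotation and the rule for reads fitting several miRNAs are not given in the sources used here, so the assignment of these counts to the 3p arm is uncertain. From the same cluster miR-497-5p was at 39.9, 37.0, 22.3, 25.6 and 22.8 CPM at month 2 and at 40.2, 46.4, 62.8, 42.4 and 41.6 CPM at month 6, a narrow separation with a log2 change of 0.65 ± 0.44.

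Smooth muscle was represented by miR-143 and miR-145, which lie next to each other in the genome and are known for the contractile state of muscle cells. The minor arm miR-145-3p was among the 12, at 311, 436, 688, 738 and 543 CPM at month 2 and 1016, 1005, 787, 1154 and 837 CPM at month 6. All 5 values at month 6 exceeded the highest at month 2, and its log2 change was 0.89 ± 0.30 (adjusted p = 0.129). For the major arm miR-145-5p the values overlapped, with 15545 to 31497 CPM at month 2 and 22806 to 36407 CPM at month 6 and a log2 change of 0.37 ± 0.27. The most abundant miRNA of month 6, miR-143-3p, read 245780.1, 126254, 97095, 102793 and 84565 CPM at month 2 and 212000.2, 143845, 157689.6, 126718 and 130623 CPM at month 6. Month 2 replicate 1 held the highest of the 10 values and the other 4 of that age the 4 lowest. With all libraries the log2 change was 0.16 ± 0.34 (95% interval -0.54 to 0.86), and it was 0.72 ± 0.29 without the 3 libraries. Month 6 replicates 4 and 5 were the lowest of their age, so leaving out the 3 raises the change of miR-143-3p by construction. All 4 tested arms of the cluster had a log2 change above 0, with a median of 0.42, and 1 of the 4 had a p under 0.05, against 177 of 331 and a median of 0.06 over all tested miRNAs. Without the 3 libraries all 4 were again above 0, with 3 at p under 0.05, which for miR-143-3p is no independent check. With only the compared groups fitted, 3 of the 4 were above 0 and the median was 0.28.

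Epithelium was represented by the miR-200 family, which holds the epithelial state by acting on ZEB transcription factors. In replicates 1 to 5, miR-200b was at 2713, 7435, 9314, 5726 and 7824 CPM at month 2 and at 27975, 44671, 23370.0, 3872 and 4792 CPM at month 6. Replicates 1, 2 and 3 of month 6 lay above every month 2 library, while replicates 4 and 5 lay within the range of month 2. It had a log2 change of 1.66 ± 0.62 (adjusted p = 0.164). Its neighbour miR-200a was at 1679, 1171, 786, 673 and 846 CPM at month 2 and at 4347, 6820.5, 1953, 682 and 1294 CPM at month 6, again with 3 high and 2 low libraries at month 6 and a log2 change of 1.45 ± 0.63. For miR-429 the values were 36.5, 42.6, 40.1, 24.3 and 30.1 CPM at month 2 and 143, 172, 80.0, 5.83 and 15.9 CPM at month 6, so that replicates 4 and 5 of month 6 were below all of month 2, and the log2 change was 1.19 ± 0.68. The other members, miR-200c and miR-141, had log2 changes of 0.83 ± 0.52 and 0.93 ± 0.83.

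All 5 members of the miR-200 family had a log2 change above 0, with a median of 1.19, and 2 of the 5 had a p under 0.05. The 5 were above 0 also with library totals and with DESeq2 size factors. When the 3 libraries were left out the median was 1.92, all 5 were above 0 and 3 of the 5 had a p under 0.05. This is no independent check, since month 6 replicates 4 and 5 were the lowest of their age in the family and leaving them out raises its change by construction. Without month 6 replicate 2 the median was 0.81 and 0 of the 5 had a p under 0.05, as with all 40 libraries in the fit. With only the compared groups fitted, or with the replicate block, 1 of the 5 did. The summed level of the family ran from 5290 to 12006 CPM at month 2. At month 6 it was 35250, 56722 and 29026 CPM in replicates 1 to 3 but 6270 and 8423 CPM in replicates 4 and 5. Month 4 replicate 5 had the lowest sum of the 20 uterus libraries, 963 CPM. The miR-183-96-182 cluster, also of epithelium, had 3 tested members whose log2 changes had a median of -0.12, and of 0.64 without the 3 libraries. The sources used here do not say how reads fitting several near-identical members were counted, which leaves uncertain the split among miR-200b, miR-200c and miR-429, and within the let-7 family.

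Other miRNAs stood high in month 6 replicates 1 and 2 as the miR-200 family did. miR-9-5p, a neural miRNA, was at 2527, 3759.7, 1516, 322 and 1083 CPM at month 6 against 629 to 1393 CPM at month 2, with a log2 change of 0.84 ± 0.51. For miR-204-5p, known from pigment and secretory epithelia, month 6 read 1193, 3811, 113, 253 and 256 CPM and month 2 99.9, 222, 428, 329 and 482 CPM. Replicates 1 and 2 exceeded all other libraries, while replicate 3 was the lowest at month 6 and near month 2 replicate 1, and the log2 change was 1.86 ± 0.70. The red blood cell miRNA miR-451-5p was at 75.4, 70.2, 34.7, 22.8 and 23.9 CPM at month 6 and at 59.4, 12.0, 15.2, 14.2 and 18.8 CPM at month 2. Without month 2 replicate 1 its values did not overlap, and the log2 change was 0.77 ± 0.65 with all libraries and 2.01 ± 0.68 without the 3. The 3 were the highest of month 2 and the lowest of month 6, so leaving them out raises the change by construction.

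Ciliated epithelium is known for miR-34 and miR-449, and here single libraries stood out. miR-34c-5p was at 3652, 390.3, 58.4, 26.0 and 16.4 CPM at month 2 and at 88.8, 96.6, 3157, 28.7 and 61.2 CPM at month 6. Only month 2 replicates 1 and 2 and month 6 replicate 3 exceeded 100 CPM, a bound chosen after the values were seen, and the log2 change of -0.60 ± 1.59 had an SE above its size. It was 3.08 ± 1.72 without the 3 libraries. Of the 5 tested members of this list 4 were above 0, with a median of 1.07, and none had a p under 0.05. That direction rested on month 6 replicate 3, since without it 0 of the 5 were above 0, the median was -1.72 and 1 was lower at p under 0.05. With the replicate number as a block, 2 of 5 were above 0 and the median was -0.54.

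**Figure D3:**
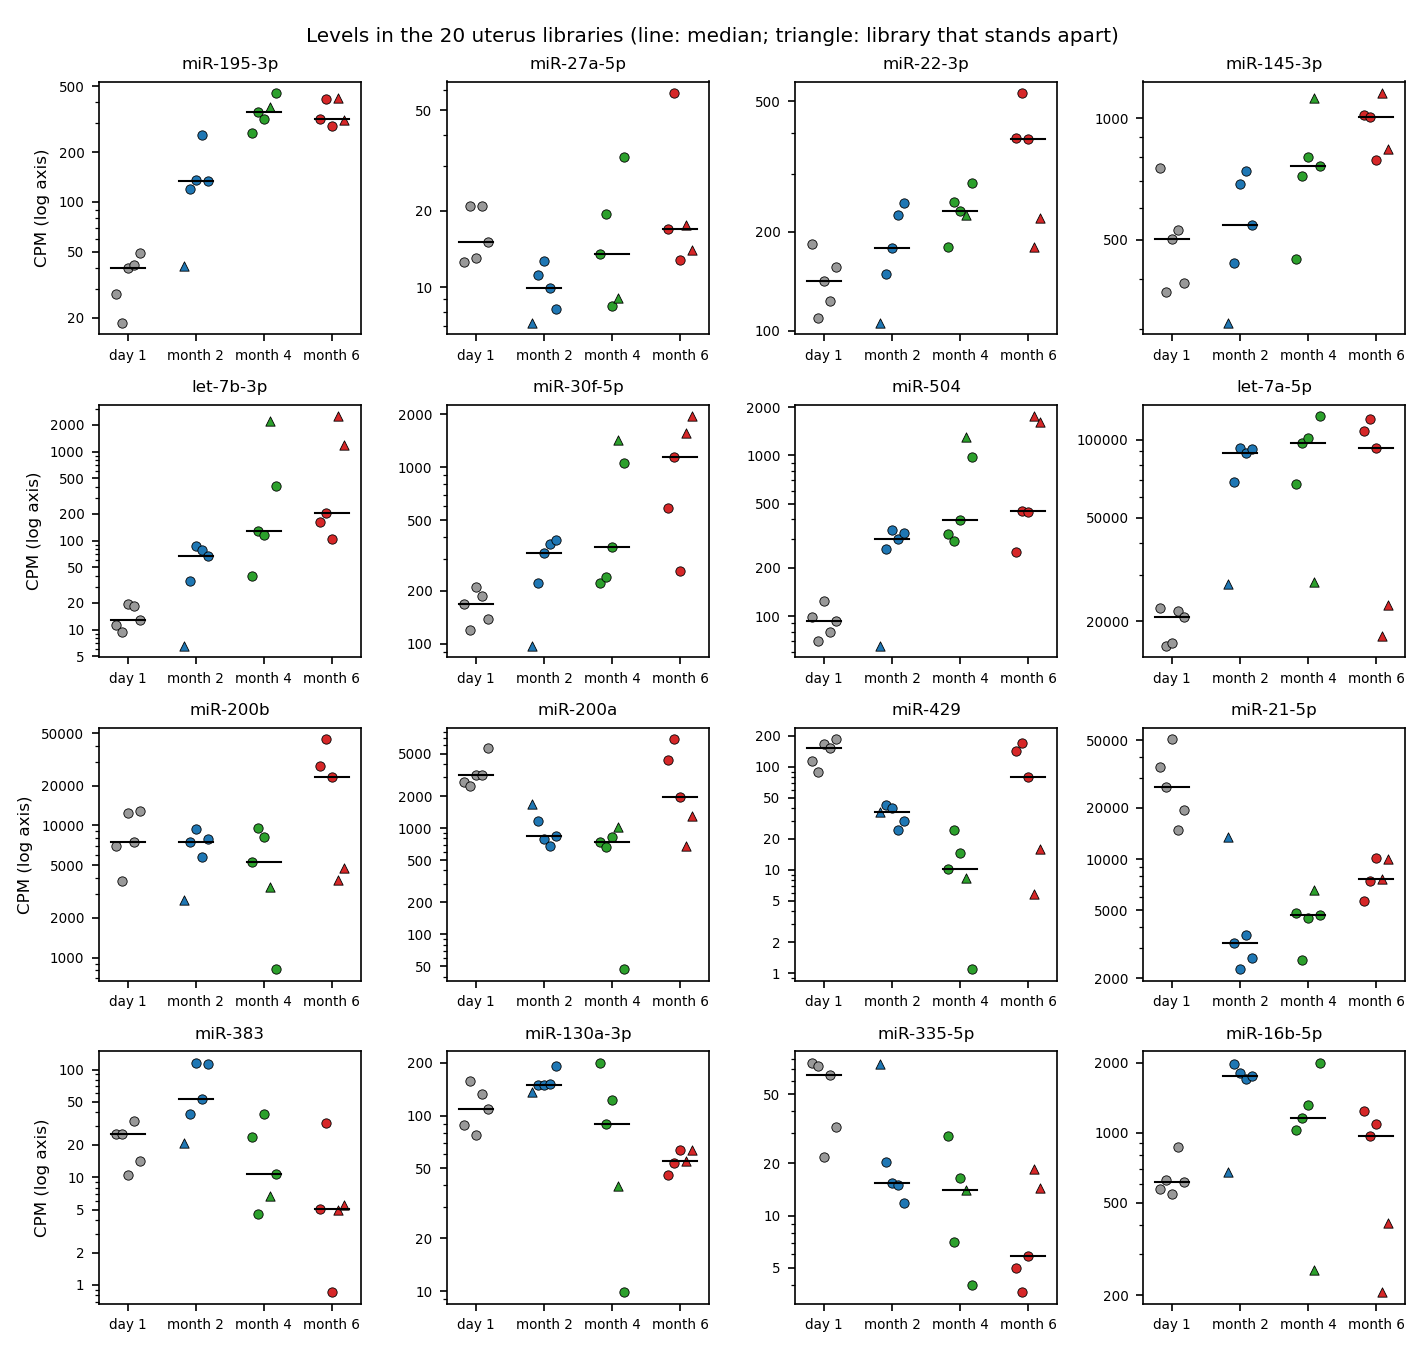
Levels of 16 miRNAs in CPM (log axis) in the 20 uterus libraries by age, with each point a library, a line at the median and triangles for month 2 replicate 1, month 4 replicate 4 and month 6 replicates 4 and 5. miR-195-3p and miR-130a-3p separate months 2 and 6, and among the month 6 libraries let-7b-3p and miR-504 are highest in the triangles and miR-200a, miR-200b and miR-429 in the circles.

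The let-7 family, which restrains growth and is known for its increase as tissues differentiate, differed by arm. The minor arm let-7b-3p was at 6.57, 34.9, 86.1, 77.8 and 66.4 CPM at month 2 and at 161, 206, 103, 2489 and 1198 CPM at month 6. All month 6 libraries were higher than all of month 2, but replicates 4 and 5 were far above the other 3. The log2 change was 4.20 ± 1.11 with all libraries (adjusted p = 0.106) and 1.26 ± 0.88 without the 3. let-7a-3p followed the same order, with 2.95, 2.50, 6.26, 5.47 and 2.94 CPM at month 2, 8.30, 9.36, 7.96, 36.6 and 37.1 CPM at month 6 and a log2 change of 2.42 ± 0.74. For let-7d-3p, at 32.4, 125, 228, 207 and 255 CPM at month 2 and 206, 211, 169.6, 1199 and 1051 CPM at month 6, replicates 1 to 3 of month 6 lay inside the range of month 2. Its log2 change was 1.95 ± 0.67 with all libraries and -0.04 ± 0.51 without the 3.

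In month 6 replicates 4 and 5, where the 3p arms were high, the abundant 5p arms were low. let-7a-5p was at 27683, 68626, 92948, 88987 and 91648 CPM at month 2 and at 108314, 119940.2, 92586, 17537 and 23140.3 CPM at month 6. Month 2 replicate 1 and month 6 replicates 4 and 5 were the 3 low libraries, near the day 1 median of 20812 CPM. With all libraries the log2 change was -0.03 ± 0.42 (95% interval -0.90 to 0.84) and without the 3 it was 0.33 ± 0.31. let-7b-5p had the same 3 low libraries and a log2 change of -0.02 ± 0.45, let-7f-5p one of -0.38 ± 0.29 and let-7c-5p one of -0.90 ± 0.44. Over the family, 16 arms were tested, and 5 had a p under 0.05, all of them 3p arms and all higher at month 6 (let-7a-3p, let-7b-3p, let-7c-3p, let-7d-3p and let-7f-3p). Without month 6 replicates 4 and 5, none of the 16 had a p under 0.05, and the median over the family was 0.11 against -0.03 with all libraries. The summed family level was 73356 and 98394 CPM in those replicates and 298710 to 331089 CPM in the other 3.

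Across the 102 hairpins with both arms tested, the arms had log2 changes of the same sign in 66, and the median absolute gap between them was 0.49. The 5 hairpins with the largest gaps in which the 3p arm was higher were let-7b (5p minus 3p of -4.22), let-7f (-4.05), let-7a (-2.45), let-7d (-2.33) and let-7c (-2.16). For let-7f the 3p arm was close to the floor, at most 0.368 CPM at month 2 and at 0.255, 0.134, 0.853, 3.13 and 2.47 CPM at month 6.

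At month 6, miR-504 and miR-1296 were also highest in replicates 4 and 5. miR-504, which lies in the gene FGF13, was at 65.1, 263, 341, 299.8 and 327 CPM at month 2 and at 252, 449, 441, 1752 and 1624 CPM at month 6. Month 6 replicate 1 lay below 4 of the month 2 libraries, and replicates 4 and 5 lay far above all others. Its log2 change of 1.99 ± 0.59 (adjusted p = 0.123) was 0.32 ± 0.45 without the 3 libraries. miR-1296, within JMJD1C, was at 4.56, 18.8, 22.0, 19.1 and 18.4 CPM at month 2 and 25.5, 31.3, 21.2, 68.2 and 43.7 CPM at month 6, with log2 changes of 1.35 ± 0.42 and, without the 3, 0.40 ± 0.30. In miR-361-3p and miR-129-3p the low library of month 6 was replicate 3. miR-361-3p, within CHM, ran from 353 to 854 CPM at month 2 and from 739 to 1683 CPM at month 6. The month 6 values of miR-361-3p overlapped month 2 in replicate 3 alone, and its log2 changes were 0.93 ± 0.28 and, without the 3, 0.49 ± 0.26. miR-129-3p, a neural miRNA, was at 3.48, 6.46, 6.99, 10.7 and 5.38 CPM at month 2 and at 21.7, 34.4, 6.97, 29.5 and 17.6 CPM at month 6. The highest library was month 6 replicate 2, and the log2 changes were 1.82 ± 0.56 and, without the 3, 1.50 ± 0.63. Without month 6 replicate 3, edgeR called let-7b-3p, miR-129-3p, miR-30f-5p and miR-361-3p (adjusted p = 0.0472 for each). That library was the lowest of month 6 for each of them, so leaving it out favours a pass by construction.

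The miR-30 family is abundant in differentiated epithelia and muscle and includes miR-30f-5p. In replicates 1 to 5, miR-30f-5p was at 97.1, 221, 327, 365 and 387 CPM at month 2 and at 585, 1138, 257, 1571 and 1944 CPM at month 6. Replicate 3 of month 6 lay inside the month 2 range and the other 4 lay above it. edgeR gave a log2 change of 2.11 ± 0.58 (adjusted p = 0.106) and 1.03 ± 0.57 without the 3 libraries. miR-30c-5p had 737 to 1383 CPM at month 2 and 1143, 1740.3, 1517, 4655 and 4820.2 CPM at month 6, and log2 changes of 1.45 ± 0.48 and, without the 3, 0.29 ± 0.41. All 11 arms of the family had log2 changes above 0 with the main scaling, 10 of 11 with DESeq2 size factors and 9 of 11 without the 3 libraries. The count was 8 of 11 without month 6 replicate 4 or 5 alone, and 7 of 11 without both or with only the compared groups fitted. Their median was 0.38, and 3 had a p under 0.05 with all libraries. Without month 2 replicate 1 the median was 0.88 and 6 had a p under 0.05.

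miR-22-3p is on the list of miRNAs reported to act on the estrogen receptor gene ESR1, and it was highest in the month 6 libraries that were low in let-7-3p arms. It stood at 106, 149, 179, 225 and 246 CPM at month 2 and at 387, 529, 383, 180.5 and 219.9 CPM at month 6. Replicates 1 to 3 of month 6 exceeded all of month 2, and replicates 4 and 5 lay within it. The log2 change was 0.93 ± 0.27 (adjusted p = 0.123), and without the 3 libraries it was 1.13 ± 0.25 (adjusted p = 0.0700). On the same list, miR-193b-5p had 2.28, 6.19, 12.3, 18.5 and 8.83 CPM at month 2 and 16.7, 25.1, 11.4, 40.6 and 33.8 CPM at month 6, and a log2 change of 1.55 ± 0.54. Of the 12 tested members 4 had a p under 0.05, all higher at month 6 (miR-22-3p, miR-22-5p, miR-193b-5p and miR-222-3p), and the median was 0.28. The list takes in both arms of a hairpin by name, whichever arm the reports concern. The other arm of its hairpin, miR-193b-3p, had a log2 change of 0.71 (edgeR unadjusted p = 0.067). Only 2 of the 12 had a p under 0.05 when DESeq2 size factors were used, and likewise 2 when the 3 libraries were left out.

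miR-21-5p, known from proliferating and inflamed tissue, was at 13511, 3206, 2257, 3562 and 2619 CPM at month 2 and at 5682, 7399.6, 10208, 7691 and 10023 CPM at month 6. Every month 6 library lay above month 2 replicates 2 to 5 and below month 2 replicate 1. The fitted log2 change was 0.59 ± 0.51 with all libraries and 1.41 ± 0.41 without the 3, and the day 1 median was 26465 CPM. Leaving out month 2 replicate 1, the highest library, raises this change by construction. The miR-29 family, which acts on collagen messenger RNAs, had a median log2 change of 0.63 over 5 tested arms, 1 of them at p under 0.05. The median was 0.20 without month 6 replicate 2, and 0.06 without replicates 4 and 5, where 3 of the 5 were above 0 and none had a p under 0.05. Without the 3 libraries it was 1.08. The arm at p under 0.05, miR-29a-3p, was at 799, 117, 108, 285 and 211 CPM at month 2 and at 338, 714, 603, 1990.2 and 1019 CPM at month 6. Again month 2 replicate 1 stood apart, and the log2 change was 1.60 ± 0.73. Its companion miR-29b-3p showed the same high libraries, with a log2 change of 1.07 ± 0.87, and it was -0.28 without month 6 replicates 4 and 5.

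The remaining miRNAs without overlap were spread over other families. miR-27a-5p, a minor arm from a miR-23/miR-27/miR-24 cluster, was at 7.24, 11.2, 12.6, 9.89 and 8.19 CPM at month 2 and at 17.0, 58.5, 12.8, 17.6 and 14.0 CPM at month 6. Replicate 3 of month 6 barely exceeded the highest month 2 library, and replicate 2 was far above the rest. The log2 change was 1.31 ± 0.42, and 0.66 without replicate 2. miR-378-3p, known from the gene of the metabolic regulator PPARGC1B, ran from 441 to 733 CPM at month 2 and from 849 to 1716 CPM at month 6, with a log2 change of 1.05 ± 0.35 and 1.14 ± 0.44 without the 3 libraries. miR-671-3p, miR-331-5p and miR-296-3p had log2 changes of 1.44 ± 0.53, 0.77 ± 0.30 and 1.13 ± 0.51. On the lower side miR-660 ran from 396 to 508 CPM at month 2 and from 247 to 374 CPM at month 6, with a log2 change of -0.49 ± 0.26.

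Among the lower miRNAs, miR-130a-3p, known from endothelial and blood-forming cells, had no overlap between the ages. It was at 137, 149.8, 149.6, 152 and 193 CPM at month 2 and at 45.9, 53.5, 63.7, 55.4 and 63.5 CPM at month 6. The highest month 6 library was below every month 2 library, and replicate 1 of month 2 was close to the others of its age. This gave a log2 change of -1.43 ± 0.50 (adjusted p = 0.148) with all libraries and -1.56 ± 0.66 without the 3. With only the 10 compared libraries in the fit it was the 1 miRNA that edgeR called, at -1.61 (adjusted p = 0.0145). In the 20 uterus libraries it varied most at month 4, from 9.81 to 200.1 CPM. The related miR-130b-3p, at 3.08, 9.09, 7.49, 5.73 and 7.17 CPM at month 2 and 3.96, 1.47, 4.55, 0.569 and 1.38 CPM at month 6, had a log2 change of -1.44 ± 0.45.

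The smallest p on the lower side belonged to miR-383, which is known from granulosa cells and testis. It was at 20.6, 39.0, 116, 53.4 and 112 CPM at month 2 and at 5.11, 31.7, 0.853, 4.98 and 5.50 CPM at month 6. Month 6 replicate 2 overlapped month 2, and the other 4 were at most 5.50 CPM. The log2 change was -2.77 ± 0.74 (edgeR adjusted p = 0.106), and -2.67 ± 0.91 without the 3 libraries. Without month 6 replicate 2 it passed the edgeR test at -3.99 (adjusted p = 0.00621). That library was the highest of month 6, so leaving it out favours a pass by construction. Also on the list of gonad and granulosa cell miRNAs, miR-224-5p, which lies within GABRE, had 1422 to 4052 CPM at month 2 and 1170.3 to 2331 CPM at month 6 and a log2 change of -0.64 ± 0.27. Both tested members of that list were lower at p under 0.05, and 1 of them was without the 3 libraries, while its defining member miR-202-5p was near 0 as given above.

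miR-135b-5p had the same pattern of lower values at a low level. It was at 24.4, 2.50, 2.45, 2.21 and 1.79 CPM at month 2 and at 0, 0.268, 0.711, 0.569 and 2.34 CPM at month 6. Month 6 replicate 5 alone reached the range of month 2, and month 2 replicate 1 resembled the day 1 median of 16.7 CPM. Its log2 change was -3.25 ± 0.88 with all libraries and -2.75 ± 0.63 without the 3 (adjusted p = 0.0700).

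The list for the miR-15/miR-16 family of cell cycle regulators takes in both arms of each hairpin. It had 3 of 8 tested members with log2 changes above 0 and 5 below, with a median of -0.26. miR-16b-5p, encoded within SMC4, was at 678, 1964, 1808, 1694 and 1748 CPM at month 2 and at 1242, 971, 1085, 206 and 407 CPM at month 6. Month 2 replicate 1 and month 6 replicates 4 and 5 were the 3 lowest, the other month 2 libraries the 4 highest, and the log2 change was -1.01 ± 0.40. miR-15b-5p, from the same gene, had a log2 change of -0.65 ± 0.29. Of the 8 tested members of the list 3 had a p under 0.05 and were lower. The 1 that was higher was miR-195-3p, the arm opposite to the family member miR-195-5p. None of the 8 was lower at p under 0.05 without the 3 libraries, nor without month 6 replicate 4 or replicate 5 alone.

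miR-335-5p, which lies in the imprinted gene MEST, was at 74.5, 20.4, 15.3, 15.1 and 11.9 CPM at month 2 and at 4.98, 3.61, 5.83, 18.5 and 14.4 CPM at month 6. The level of month 2 replicate 1 was that of day 1, and month 6 replicates 4 and 5 lay within the range of month 2 replicates 2 to 5. The log2 change of -1.57 ± 0.69 was -0.73 without month 2 replicate 1 and -1.72 ± 0.61 without the 3 libraries. In the large imprinted DLK1-DIO3 cluster, 2 of 48 tested members had a p under 0.05, miR-495-3p (-0.61 ± 0.24) and miR-487b-3p (-0.75 ± 0.35), both lower. The median of the cluster was -0.05 and -0.19 with DESeq2 size factors. Those lower at p under 0.05 numbered 4 with DESeq2 size factors, 5 without month 6 replicate 5, 7 without month 6 replicates 4 and 5, and 0 without replicate 4 of either age or without the 3 libraries. Without month 2 replicate 1, 3 were higher and 3 lower.

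Leukocyte miRNAs gave 2 of 7 members at p under 0.05. These were the arms of miR-146b, which dampens innate immune signals, and miR-146b-5p was at 279, 97.9, 182, 139 and 163 CPM at month 2 and at 98.0, 34.1, 160.4, 31.6 and 72.6 CPM at month 6. The groups overlapped through month 6 replicates 1 and 3, and the log2 change was -1.20 ± 0.45 with all libraries and -0.54 ± 0.48 without the 3. The summed level of the leukocyte list was 654 to 1331 CPM at month 2 and 755 to 1336 CPM at month 6. miR-181b-5p, a lymphoid and vascular miRNA, had a log2 change of -0.69 ± 0.32. Endothelial miR-126-3p ran from 3994 to 7718 CPM at month 2 and from 2990.1 to 6411 CPM at month 6, with a log2 change of -0.15 ± 0.30 (95% interval -0.79 to 0.48). The stroma miRNA miR-199a-3p had 15217, 18252, 21400.3, 19235 and 18012 CPM at month 2 and 9971, 11115, 16080.2, 18994 and 21136 CPM at month 6, lowest in the 2 libraries with the highest miR-200 sums, and a log2 change of -0.18 ± 0.34. Of the 5 tested arms of miR-199 and miR-214, 1 was above 0, none had a p under 0.05 and the median was -0.18. With DESeq2 size factors 0 were above 0, 1 was lower at p under 0.05 and the median was -0.33. Without the 3 libraries 0 were above 0 and the median was -0.46.

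miRNAs embedded in the HOX gene clusters, which mark position along the body axis, were led by miR-10b-5p. It was at 87534, 165984, 127484, 119425 and 133302 CPM at month 2 and at 80743, 66934, 95572, 85981 and 112691 CPM at month 6, so that month 2 replicates 2 to 5 were the 4 highest and replicate 1 lay inside month 6. In those 4 libraries it was the most abundant miRNA, and in the other 6 miR-143-3p was. Its log2 change was -0.46 ± 0.41. The summed level of the list was 139562 to 210788 CPM at month 2 and 90879 to 138630 CPM at month 6. These ranges were only narrowly apart, and the lowest sum of month 2 was that of replicate 1. None of the 6 members had a p under 0.05, and their median log2 change was -0.29, with 1 of 6 above 0. Without the 3 libraries the median was -0.04, with 3 of 6 above 0.

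Of the other abundant miRNAs, miR-99a-5p, miR-125a-5p, miR-125b-5p and miR-26a-5p were highest in month 6 replicates 4 and 5. miR-125b-5p, a let-7 cluster partner, was at 9403, 20723, 32307, 30846 and 32765 CPM at month 2 and at 18548, 23666, 21811, 72189 and 55162 CPM at month 6. Replicates 1 to 3 of month 6 lay between month 2 replicate 1 and the month 2 maximum. The log2 change was 0.77 ± 0.45 with all libraries and -0.43 ± 0.33 without the 3. miR-99a-5p gave 0.33 ± 0.43 and, without the 3, -0.67 ± 0.33. For miR-125a-5p these values were 0.82 ± 0.45 and -0.37 ± 0.30, and for miR-26a-5p, encoded within CTDSPL, 0.09 ± 0.41 and -0.45 ± 0.39. miR-27b-3p was even over the 10 libraries, with 22259 to 37585 CPM at month 2, 23389 to 36056 CPM at month 6 and a log2 change of -0.03 ± 0.30 (95% interval -0.65 to 0.58).

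**Figure D4:**
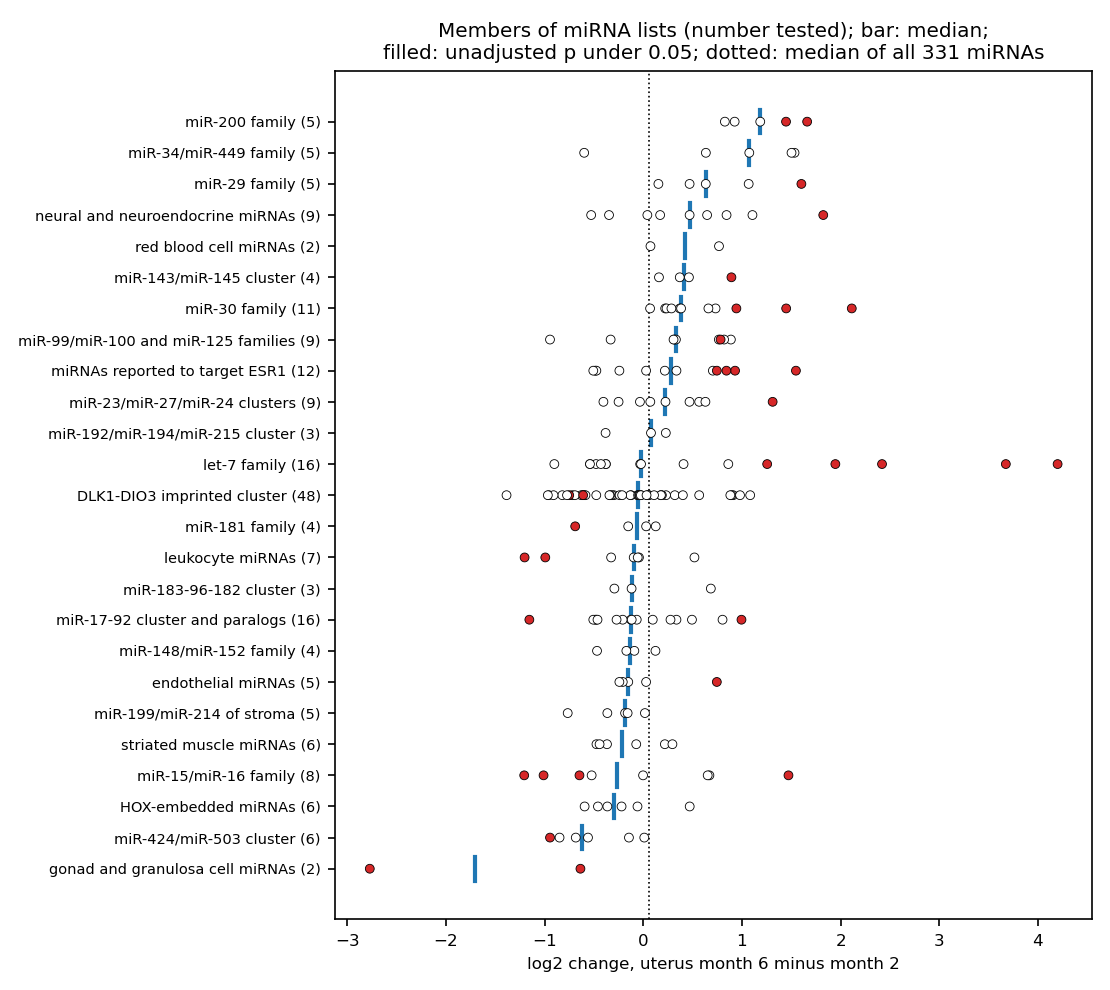
Log2 change (month 6 minus month 2) of every tested member of 25 miRNA lists, with the number tested in brackets, a blue bar at the list's median and a dotted line at the median of all 331 miRNAs. Filled points have an unadjusted p under 0.05; the miR-200 family has the highest median (1.19), and the 5 filled let-7 points are 3p arms.

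The remaining lists held few miRNAs at p under 0.05. The miR-17-92 cluster and its paralogs, which promote proliferation, had 1 higher and 1 lower of 16, with a median of -0.12. The 6 tested arms of miR-424, miR-450 and miR-542, neighbours on the X chromosome, included 1 lower and had a median of -0.62. Striated muscle miRNAs (6 tested), the miR-192/miR-194/miR-215 cluster (3), the miR-148/miR-152 family (4) and red blood cell miRNAs (2) had none. The neural list had 1 of 9, miR-129-3p, and the endothelial list 1 of 5, miR-222-3p, both higher. The miR-99/miR-100 and miR-125 families had 1 higher of 9, the miR-23/miR-27/miR-24 clusters 1 higher of 9, and the miR-181 family 1 lower of 4. For the miR-99/miR-100 and miR-125 families the median was 0.33, with 7 of 9 above 0. It was -0.37 without the 3 libraries, with 2 of 9 above 0. The counts at p under 0.05 stand beside the 19.3% of all tested miRNAs and carry no test of their own.

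Leaving out the 3 libraries changed which miRNAs led. edgeR then called 0 of 346, with 38 at p under 0.05, of which 20 were among the 64 with all libraries. The miRNAs of the smallest p were then miR-22-3p and miR-135b-5p, followed by miR-200b at 2.07 ± 0.58, miR-200a at 2.30 ± 0.65, miR-21-5p and miR-9-5p at 1.60 ± 0.46. miR-204-5p was at 2.22 ± 0.72 and miR-429 at 1.92 ± 0.60. In contrast, let-7b-3p, let-7d-3p, miR-504 and miR-1296 had unadjusted p of 0.171, 0.941, 0.489 and 0.189.

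**Figure D5:**
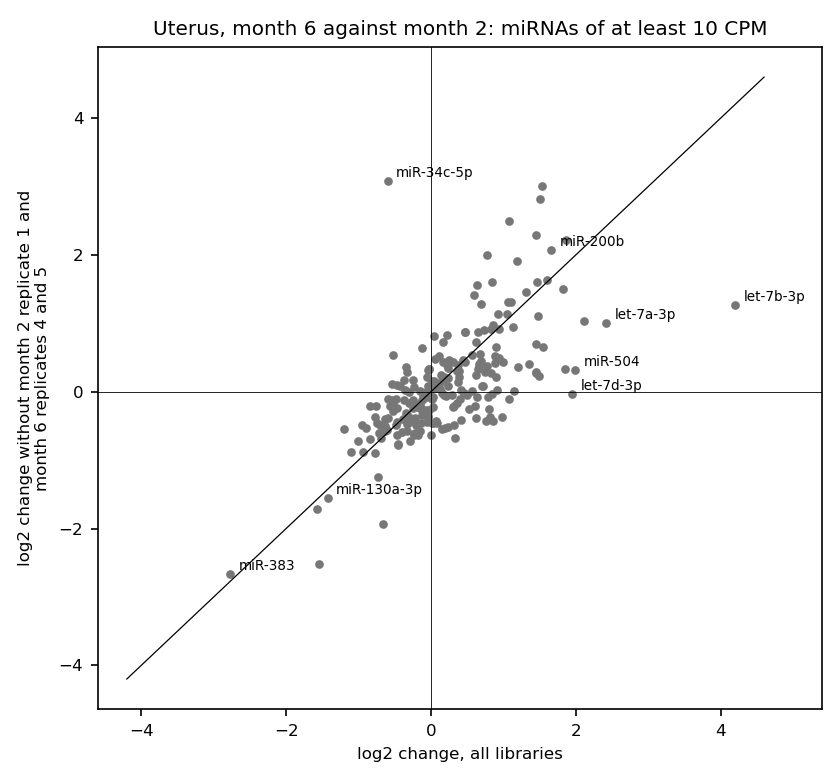
Log2 change with all 10 libraries (x axis) against the change without month 2 replicate 1 and month 6 replicates 4 and 5 (y axis) for 231 miRNAs of at least 10 CPM, with the line of equal values. let-7b-3p, let-7d-3p and miR-504 lie far below the line, miR-200b and miR-34c-5p above it, and miR-383 and miR-130a-3p close to it.

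The same step of age in the ovary was set against the uterus by an interaction term over all 40 libraries, which asks whether the change from month 2 to month 6 differed between the organs. edgeR called 0 of 350 miRNAs (0%), and 31 (8.86%) had an unadjusted p under 0.05, 26 with the more positive change in uterus and 5 with the more negative. With DESeq2 size factors this split was 13 and 23. The smallest p was that of miR-148b-3p, within COPZ1, with a difference of 1.57 ± 0.43 (adjusted p = 0.166). Its uterus level was 1925 ± 553 CPM at month 2 and 1690.3 ± 359.9 CPM at month 6, and its ovary level 8307 ± 2124 and 2314 ± 641 CPM (mean ± SD, n = 5). In ovary its log2 change of -1.70 ± 0.31 passed the edgeR test (adjusted p = 0.00136), and in uterus the joint fit gave -0.13 ± 0.30. Ovary month 6 replicates 2 and 4 were counted among the libraries in doubt, though similarity was computed among uterus libraries alone. The ovary contrast was not refitted without them.

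miR-335-5p had opposite signs in the organs. Its log2 change was -1.52 ± 0.59 in uterus and 1.51 ± 0.60 in ovary, a difference of -3.03 ± 0.84 (edgeR adjusted p = 0.166). The Wald test of DESeq2 called it at -3.31 (adjusted p = 0.0113). edgeR did so at -3.60 without month 6 replicates 4 and 5 (adjusted p = 0.0277), and at -3.30 over the miRNAs of at least 10 CPM in 5 libraries (adjusted p = 0.0449). Without uterus month 2 replicate 1 the difference was -2.04 (edgeR adjusted p = 0.695). Ovary levels were 6.01 ± 3.07 CPM at month 2 and 13.7 ± 7.75 at month 6, and uterus levels 27.5 ± 26.5 and 9.47 ± 6.59 CPM. The other leading differences were miR-504 (2.61 ± 0.87), miR-409-5p (1.32 ± 0.45), miR-218 (-2.18 ± 0.99) and miR-383 (-2.05 ± 1.02), none of which passed the test.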

How the data were processed

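Small RNA of goat uterus was sequenced by the submitters, and the deposited table holds whole-number read counts per mature miRNA and library, made by the authors without normalization. Per the submitters' processing notes, the tools were RSEM 1.3.0, Bowtie 1.0.1 and cutadapt 1.16, and the notes give none of them a role. Which genome build and miRNA annotation were used, and how reads fitting several miRNAs were counted, is not given in the sources used here. No column of the table was left unused. miRNA names were matched to the RefSeq goat gene table (423 of 427 matched), which gave host genes and neighbouring miRNA genes within 10 kb. Sequences were not analysed here.

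The tool was edgeR 4.0.16 under R 4.3.3. The 20 uterus libraries were fitted with age as the factor, after filterByExpr and scaling by the trimmed mean of M values (TMM). The quasi-likelihood test gave log2 changes, and Benjamini-Hochberg adjustment ran over the 331 tested miRNAs, with a call at an adjusted p under 0.05. The SE was derived as the size of the log2 change over the square root of F. The common biological coefficient of variation was 0.598. CPM were scaled to the library total. The interaction with ovary was fitted on all 40 libraries. No pair of the 10 compared libraries agreed within counting noise (smallest chi-square per degree of freedom 389). The p-values measure the spread between individuals as labelled. The pipeline was tested on simulated data.

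Named miRNAs were the 10 of smallest p in each direction with a mean of at least 10 CPM, since no direction had calls, the 10 most abundant, members of 31 lists, and for the interaction the 3 of smallest p in each direction. miR-135b-5p, miR-130b-3p and the other miRNAs named outside this rule were chosen after their values were seen. The miRNAs and lists were chosen with earlier results of these data known. Lists were matched by miRNA name and take in both arms of a hairpin where both have a row. Lists for miR-203, miR-205 and miR-375, for hypoxia and for pluripotency had no row. Alternatives were DESeq2 1.42.0 (its size factors, and its Wald test), library totals, other filters, the replicate number as a block, fewer or more libraries in the fit and single libraries left out. Fitting all 40 libraries to the uterus comparison was added after seeing the data.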

Additional observations from a re-analysis of the deposited data

Results flagged for a closer look

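Single libraries lay far from the other 4 of their age, by Dixon's criterion for 5 values, for 16 of 64 named miRNAs at month 2 and 4 of 64 at month 6. Chance flags about 1 in 20 groups of independent values, and these miRNAs are not independent. The criterion looks for 1 far library and can miss 2 that lie far together, as month 6 replicates 4 and 5 did for let-7b-3p. The share at month 6 therefore does not show that its libraries were alike. In month 2, replicate 1 was the far library in 15 of the 16. It was above the others for miR-143-3p (245780 CPM), miR-21-5p (13511 CPM), miR-126-3p (7718 CPM), miR-34c-5p (3652 CPM), miR-29a-3p (799 CPM), miR-218 (588 CPM) and miR-335-5p (74.5 CPM). It was also above them for miR-451-5p (59.4 CPM), miR-29b-3p (31.4 CPM), miR-135b-5p (24.4 CPM), miR-141 (17.3 CPM) and miR-202-5p (0.402 CPM, the others at 0). It was below them for miR-16b-5p (678 CPM), miR-504 (65.1 CPM) and miR-1296 (4.56 CPM). The exception in month 2 was miR-130a-3p, highest in replicate 5 at 193 CPM.

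In month 6 the far libraries differed from one miRNA to the next. Replicate 2 was high for miR-27a-5p (58.5 CPM) and miR-383 (31.7 CPM). Replicate 3 was high for miR-34c-5p (3157 CPM) and miR-497-5p (62.8 CPM).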

How the results depend on the processing

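The count of 0 calls in the uterus comparison was also 0 with DESeq2 size factors, library totals, no filter, at least 10 CPM in 5 libraries, the replicate block, and without the libraries in doubt. It became 12 with the Wald test of DESeq2, 1 with only the compared groups fitted and 6 with all 40 libraries in the fit. With single libraries left out it ran from 0 to 4. The 43 miRNAs higher at an unadjusted p under 0.05 became 25 with only the compared groups, 24 without month 6 replicates 4 and 5, 25 without the 3 libraries, 28 when month 4 replicate 4 was left out too, and 28 to 47 with single libraries left out. The 21 lower ones became 32 with DESeq2 size factors, 33 with the Wald test, 13 without the 3 libraries, and 12 to 26 with single libraries left out. The cause of these shifts was not tested.

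For the interaction, edgeR called 1 miRNA with at least 10 CPM in 5 libraries and 1 without month 6 replicates 4 and 5, and the Wald test of DESeq2 called 1, miR-335-5p in each. Its 26 more positive differences became 13 with DESeq2 size factors, 4 with at least 10 CPM, 15 with the Wald test, 14 with only the compared groups, and 10 without 4 uterus and 3 ovary libraries in doubt. Its 5 more negative ones became 23, 21, 24 and 15 in the first 4 of these, 3 with the replicate block, 30 without month 6 replicates 4 and 5, 10 without the 3 libraries, 19 without the 7, and 3 to 10 with single libraries left out. The 7 were the 3 libraries, uterus month 4 replicate 4, ovary day 1 replicate 3 and ovary month 6 replicates 2 and 4. In ovary day 1 replicate 3, miR-143-3p held 73.3% of the counts. No similarity among ovary libraries was computed, so the choice of the ovary libraries rests on no measure given here beyond that share.

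The log2 changes of 60 single miRNAs were recomputed, and 47 kept their sign throughout. Many of the 60 were chosen by small p or after their values were seen, which favours a kept sign. Of all 331 tested miRNAs, 258 had the same sign without month 6 replicates 4 and 5, and 252 without the 3 libraries. The sign reversed for miR-26a-5p with DESeq2 size factors and the Wald test (-0.075 in both). With only the compared groups, miR-143-3p was -0.031 and miR-26a-5p -0.17. Without a filter, let-7a-5p was 0.18, let-7b-5p 0.17 and miR-27b-3p 0.046. With at least 10 CPM, let-7a-5p was 0.055, let-7b-5p 0.067 and miR-26a-5p -0.029. With all 40 libraries, let-7a-5p was 0.014, let-7b-5p 0.028 and miR-27b-3p 0.018. Without month 6 replicates 4 and 5, let-7a-5p was 0.57, let-7b-5p 0.59, let-7f-5p 0.031, miR-99a-5p -0.73, miR-26a-5p -0.58, miR-125a-5p -0.10, miR-125b-5p -0.21 and miR-29b-3p -0.28. Without the 3 libraries, with or without month 4 replicate 4, let-7a-5p was 0.33, let-7b-5p 0.33, let-7f-5p 0.18, let-7d-3p -0.038, miR-99a-5p -0.67, miR-26a-5p -0.45, miR-125a-5p -0.37, miR-125b-5p -0.43 and miR-34c-5p 3.08. With single libraries left out, let-7a-5p ran from -0.26 to 0.20, let-7b-5p from -0.28 to 0.21, miR-99a-5p from -0.23 to 0.39, miR-26a-5p from -0.30 to 0.13, miR-27b-3p from -0.15 to 0.032, miR-126-3p from -0.27 to 0.025 and miR-34c-5p from -3.92 to 2.43.

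Same-numbered libraries of the 2 ages had correlations of -0.41, 0.10, -0.03, 0.14 and -0.13 in their deviations from the group means, which gave no sign of pairing by number. The libraries that stood apart weigh on these values, so they cannot exclude a shared block. The fit with the replicate block called 0 miRNAs, with 41 higher and 15 lower at an unadjusted p under 0.05. The 96 miRNAs below the filter, with a mean of at most 0.849 CPM, were not tested.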
